A study of Mus musculus with 18 samples.

Results

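Barttin and the K-Cl cotransporters KCC1 and KCC4 belong to the machinery that carries chloride across the basolateral membrane of the thick ascending limb (TAL). Their genes, *Bsnd*, *Slc12a4* and *Slc12a7*, were taken by name from the deposited gene tables, where each had 1 row among 55401 genes. All 3 passed the filter on low counts in every comparison. RNA had been sequenced from 18 pools of 150 to 200 microdissected tubules, each from a single adult male mouse labelled C57BL/6J. All mice carried floxed *Cldn10* (Cldn10 fl/fl), the gene of a paracellular sodium pore of the tight junction. The knock-out mice (cKO) also carried Ksp-Cre, whose promoter, that of cadherin 16, acts in other distal tubule segments too, and the WT mice were Cre-negative littermates. There were 5 pools of WT cortical TAL (WT CTAL), 5 of cKO CTAL, 5 of WT medullary TAL (WT MTAL), taken from the outer medulla's inner stripe, and 3 of cKO MTAL, which were hard to dissect because of calcium deposits in the medulla.

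In the TAL, chloride enters from the lumen with sodium and potassium through NKCC2 and leaves on the blood side through chloride channels and K-Cl cotransport. Barttin is the small accessory subunit that brings these kidney and inner ear channels to the cell surface and makes them conduct, and its loss in patients causes salt wasting with deafness. K-Cl cotransporters couple the exit of chloride to that of potassium. KCC4 is found on the basolateral membrane of several nephron segments, whereas KCC1 is present in most tissues and is known for its part in cell volume regulation.

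The loss of *Cldn10* was partial. Its level was 383 to 579 CPM (counts scaled to the library size) in WT CTAL against 156 to 185 in cKO CTAL, and 665 to 823 in WT MTAL against 151 to 283 in cKO MTAL. The labels of WT CTAL replicate 1 conflict, as the pool name in its title is a WT one while the rest of the title and the genotype field name the knock-out. This pool stood at 446 CPM of *Cldn10* and was used as WT. NKCC2 (*Slc12a1*), the defining marker of the TAL, had group means of 13200 to 15500 CPM. Total counts per pool were 10824328 to 62339991, with the cKO MTAL pools at the low end (13275285 to 19608788). *Bsnd* received 2867 to 26588 counts per pool, *Slc12a4* 582 to 3086 and *Slc12a7* 1635 to 8746. *Xist*, an RNA of the inactive X chromosome in females, lay between 6.5 and 8.91 CPM in 7 pools and under 1 CPM in the others, although all mice were stated to be male and the Y-linked *Ddx3y* was at 23.6 CPM or more in each pool. The 7 were WT CTAL replicates 3 and 22, cKO CTAL replicate 2 and WT MTAL replicates 11, 15, 17 and 19. As 4 of 5 WT MTAL pools and none of the cKO MTAL pools were among them, fits with a term for these pools are given beside some of the results.

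*Bsnd* lies on the minus strand of chromosome 4 (chr4:106483456-106492283, GRCm38, also called mm10), *Slc12a4* on the minus strand of chromosome 8 (chr8:105943590-105966097) and *Slc12a7* on the plus strand of chromosome 13 (chr13:73733094-73816754). No annotated gene overlapped *Bsnd* or *Slc12a7*. *Slc12a4* overlapped the microRNA gene *Mir7074* by 63 bases and the antisense gene *Gm16156* by 2254 bases. Of the 31-base stretches of the longest coding transcript in GENCODE M21, 0 of 2726 for *Bsnd*, 0 of 5112 for *Slc12a7* and 279 of 3781 (7.38%) for *Slc12a4* were found in a transcript of another gene on either strand. For *Slc12a4* that gene was *Gm16156*, which had 0 counts in 17 of 18 pools and 1 count in the other. The counts of *Slc12a4* and *Slc12a7* were whole numbers in each pool, whereas those of *Bsnd* had decimals in 17 of 18 pools, and what these came from was not tested.

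The coding sequences of the 2 cotransporters are close enough for the question whether their reads can be told apart. They were 3264 bases (*Slc12a4*) and 3252 bases (*Slc12a7*) long and identical at 72.6% of 3228 aligned bases. The longest run they shared was 28 bases, in exon 5 of 24 in both, and is shown in capitals within 55 bases of that exon, 5′ to 3′ on the coding strand, from the GENCODE M21 transcripts (chr8:105955427-105955481 for *Slc12a4*, chr13:73789941-73789995 for *Slc12a7*).
Slc12a4: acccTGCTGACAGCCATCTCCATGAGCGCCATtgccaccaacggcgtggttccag
Slc12a7: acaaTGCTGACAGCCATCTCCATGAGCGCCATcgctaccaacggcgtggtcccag
The windows were identical at 50 of 55 bases. Any longer read within the coding sequences therefore meets at least 1 base that differs.

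Per transcript length, barttin mRNA was the most abundant of the 3. *Bsnd* had a mean of 122 ± 15.4 TPM, the scale corrected for transcript length (SD, n = 5), in WT CTAL, 156 ± 40.5 in cKO CTAL (n = 5), 93.8 ± 18.2 in WT MTAL (n = 5) and 143 ± 10.2 in cKO MTAL (n = 3). It ranked between 645 and 952 among the 13995 to 14811 genes with a mean of at least 1 TPM in a group. *Slc12a7* followed with group means of 35.1 to 39.2 TPM and *Slc12a4* with 19 to 30.8 TPM. The lowest *Bsnd* pool, at 63.2 TPM, was above the highest *Slc12a7* pool, at 48.3 TPM. In each pool *Slc12a7* exceeded *Slc12a4*, by 1.26 to 2.66 times in TPM. Barttin mRNA amounted to 0.0146 to 0.0443 of the NKCC2 mRNA of the same pool.

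Barttin mRNA was at its lowest in WT MTAL and higher in all cKO MTAL pools than in any WT MTAL pool, although the fit across all genes did not call the difference. The level of *Bsnd* was 242, 233, 145, 236 and 264 CPM in WT MTAL replicates 11, 13, 15, 17 and 19, and 312, 310 and 273 CPM in cKO MTAL replicates 16, 18 and 20. WT MTAL replicate 15 lay well below the other WT pools. The fitted difference was 0.47 on the log2 scale (SE 0.152, 95% interval 0.14 to 0.79, a fold of 1.38), with an adjusted p of 0.0737 in edgeR's quasi-likelihood test over 12060 genes. The exact two-sided Mann-Whitney test gave p = 0.0357, the smallest that 3 against 5 pools allow, and 0.134 after adjustment over the 15 tests of the members. Non-overlap of these groups was found for 15% of all genes tested and a call at an adjusted p under 0.05 for 7.01%. The DESeq2 likelihood ratio test, at the same log2 difference, gave an adjusted p of 0.0349. With a term for the pools with *Xist* the difference was 0.36 (adjusted p = 0.26), and without WT MTAL replicate 15 it was 0.36 (adjusted p = 0.0931). Over all alternatives the adjusted p ran from 0.0349 to 0.26.

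In the cortex the genotypes overlapped. *Bsnd* was at 319, 270, 312, 236 and 255 CPM in WT CTAL replicates 1, 3, 8, 10 and 22, and at 305, 364, 345, 405 and 223 CPM in cKO CTAL replicates 2, 4, 7, 9 and 21. The cKO CTAL pools held both the highest and the lowest value, and the difference of 0.23 (SE 0.136, 95% interval -0.06 to 0.52) had an adjusted p of 0.56. The genotype effect in MTAL exceeded that in CTAL by 0.23 (SE 0.22), with an adjusted p of 0.69 for the interaction in one fit of all 18 pools. With the *Xist* term the interaction was 0.15 (adjusted p = 0.821). Without cKO CTAL replicate 9 the difference in CTAL was 0.14, and without replicate 21 it was 0.34 (adjusted p = 0.228).

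Between segments, *Bsnd* was lower in WT MTAL than in WT CTAL by a fitted log2 difference of -0.33 (SE 0.132, 95% interval -0.61 to -0.05), which did not pass edgeR's test (adjusted p = 0.178). WT MTAL replicate 15 contributed to it, since without that pool the difference was -0.21 (adjusted p = 0.293), and with the *Xist* term it was -0.27 (adjusted p = 0.38). In cKO mice the segments differed by -0.07 (SE 0.158, adjusted p = 0.862), and cKO MTAL stood 0.14 above WT CTAL (SE 0.118, adjusted p = 0.536). The latter was 0.08 without WT CTAL replicate 10 and 0.21 without cKO MTAL replicate 20. By mean CPM the order was cKO CTAL (328 ± 68.7, n = 5), cKO MTAL (298 ± 21.7, n = 3), WT CTAL (278 ± 36.2, n = 5) and WT MTAL (224 ± 45.9, n = 5). The pools of any 2 neighbours in this order overlapped in range.

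**Figure D1:**
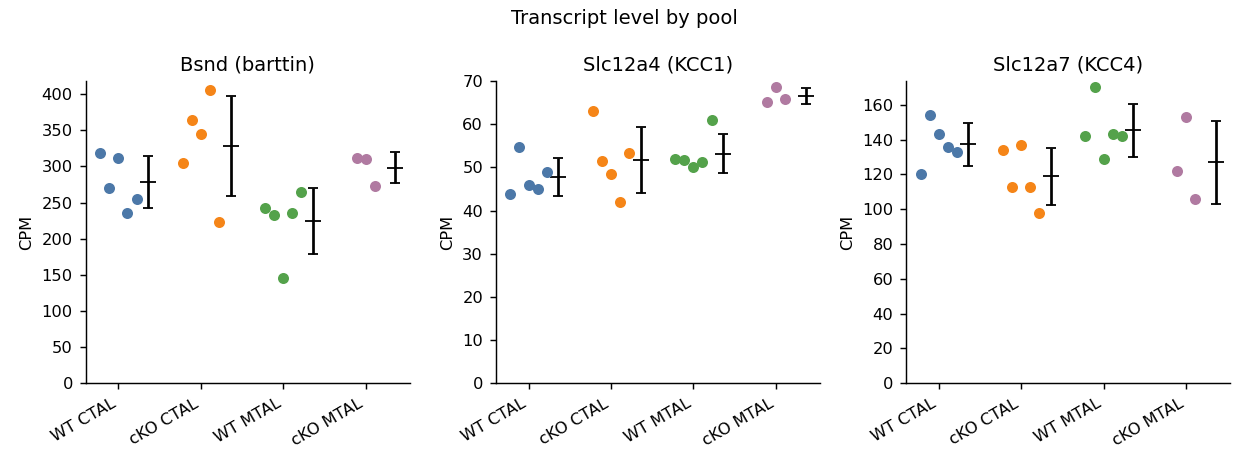
Level of *Bsnd*, *Slc12a4* and *Slc12a7* in CPM (vertical axes from 0) in each of the 18 pools, by group (WT CTAL blue, cKO CTAL orange, WT MTAL green, cKO MTAL purple), with the mean and SD of each group as a black bar to its right. The 3 cKO MTAL pools lie above the 5 WT MTAL pools for *Bsnd*, with WT MTAL replicate 15 at 145 CPM, and above all other 15 pools for *Slc12a4*, while the groups overlap for *Slc12a7*.

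Set against NKCC2 in the same pool, barttin mRNA showed the same separation in the medulla. The TPM ratio of *Bsnd* to *Slc12a1* was 0.023, 0.0208, 0.0146, 0.0241 and 0.0256 in WT MTAL replicates 11, 13, 15, 17 and 19, and 0.0326, 0.0403 and 0.0257 in cKO MTAL replicates 16, 18 and 20. The lowest cKO pool and the highest WT pool nearly met. The medians differed by 0.50 on the log2 scale (exact Mann-Whitney p = 0.0357, adjusted over 10 ratio tests 0.119), and a ratio within a pool shows only that the genes changed unequally. *Slc12a1* itself had a fitted difference of -0.18 on counts (SE 0.111, adjusted p = 0.348), with mean levels of 4360 TPM in WT MTAL and 4450 TPM in cKO MTAL. The ratios of WT CTAL (0.0289 ± 0.00497, n = 5) and cKO CTAL (0.0356 ± 0.00903, n = 5) overlapped with an exact p of 0.151 and an adjusted p of 0.252. Only cKO CTAL replicate 21, at 0.0206, kept these groups from separating. Without it the exact p was 0.0159, the lowest possible for the pools left. As that pool was picked by its value, no conclusion is drawn from this p.

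KCC1 mRNA was highest in cKO MTAL. *Slc12a4* was at 65.2, 68.7 and 65.8 CPM in cKO MTAL replicates 16, 18 and 20, and no other pool reached these values. WT MTAL replicates 11, 13, 15, 17 and 19 were at 52, 51.7, 50.1, 51.3 and 61.1 CPM, and replicate 19 stood apart from the other 4. In the cortex, WT CTAL replicates 1, 3, 8, 10 and 22 were at 43.9, 54.8, 46, 45 and 49 CPM, and cKO CTAL replicates 2, 4, 7, 9 and 21 at 63, 51.4, 48.6, 42 and 53.3 CPM. The group means ran from 47.7 ± 4.38 (WT CTAL, n = 5) over 51.7 ± 7.66 (cKO CTAL, n = 5) and 53.2 ± 4.45 (WT MTAL, n = 5) to 66.6 ± 1.86 (cKO MTAL, n = 3). The pools of the first 3 groups overlapped in range.

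The difference passed the test only against WT CTAL, a comparison in which segment and genotype cannot be told apart. There the fitted difference was 0.52 (SE 0.111, 95% interval 0.28 to 0.76, a fold of 1.44) with an adjusted p of 0.0275 in edgeR, where 2.5% of the 12024 genes tested were called and 12% did not overlap. This call was lost, with adjusted p values of 0.0506 to 0.0892, when WT CTAL replicate 1, 8, 10 or 22 or cKO MTAL replicate 16 was left out, and it held without WT CTAL replicate 3 or cKO MTAL replicate 18 or 20. Against WT MTAL the difference was 0.37 (SE 0.126, 95% interval 0.11 to 0.64, adjusted p = 0.0819), and against cKO CTAL 0.44 (SE 0.127, 95% interval 0.16 to 0.71, adjusted p = 0.1). Of all genes tested against cKO CTAL, 1.75% were called and 10.8% did not overlap. With a term for the pools with *Xist*, the differences were 0.60 against WT CTAL (adjusted p = 0.00341), 0.53 against WT MTAL (adjusted p = 0.0123) and 0.45 against cKO CTAL (adjusted p = 0.0184). Over all alternatives the adjusted p ran from 0.00136 to 0.0892 against WT CTAL, from 0.0123 to 0.295 against WT MTAL and from 0.0184 to 0.309 against cKO CTAL. The exact Mann-Whitney p was 0.0357 in each of these 3 comparisons and 0.134 after adjustment over the 15 tests. On TPM, where WT MTAL replicate 13 and cKO CTAL replicate 4 fell within the range of cKO MTAL, it was 0.0714 against WT MTAL and against cKO CTAL. The 3 comparisons share the cKO MTAL pools.

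Between the genotypes in CTAL, *Slc12a4* differed by 0.11 (SE 0.105, 95% interval -0.12 to 0.33, adjusted p = 0.768). The difference was 0.03 without cKO CTAL replicate 2 and 0.17 without replicate 9. Between WT segments it differed by 0.15 (SE 0.096, 95% interval -0.05 to 0.35, adjusted p = 0.444), and by 0.07 with the *Xist* term (adjusted p = 0.781). The interaction was 0.25 (SE 0.153, adjusted p = 0.462) and 0.37 with the *Xist* term (adjusted p = 0.241), so that a larger genotype effect in MTAL than in CTAL was not shown.

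For KCC4 no comparison passed the test. *Slc12a7* was at 120, 154, 143, 136 and 133 CPM in WT CTAL replicates 1, 3, 8, 10 and 22, and at 134, 113, 137, 113 and 97.8 CPM in cKO CTAL replicates 2, 4, 7, 9 and 21. The fitted difference in CTAL was -0.21 (SE 0.099, 95% interval -0.42 to -0.003, adjusted p = 0.413), but it was 0.05 by limma on log2(TPM + 0.1). WT MTAL replicates 11, 13, 15, 17 and 19 were at 142, 170, 129, 143 and 142 CPM, and cKO MTAL replicates 16, 18 and 20 at 122, 153 and 106 CPM. These groups overlapped, and the fitted difference of -0.14 (SE 0.132, 95% interval -0.42 to 0.14, adjusted p = 0.563) also turned to 0.16 on the TPM scale. It was -0.03 without cKO MTAL replicate 20 and -0.28 without replicate 18. The WT segments differed by 0.07 (SE 0.091, 95% interval -0.12 to 0.27, adjusted p = 0.742), by -0.06 on TPM and by 0.01 without WT MTAL replicate 13. The group means of 119 ± 16.6 (cKO CTAL, n = 5), 127 ± 23.9 (cKO MTAL, n = 3), 137 ± 12.5 (WT CTAL, n = 5) and 145 ± 15 CPM (WT MTAL, n = 5) had no 2 neighbours that differed beyond their spread.

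Over the 3 members, cKO CTAL against WT CTAL and WT MTAL against WT CTAL gave 0 calls and 0 members without overlap, where edgeR called 1.22% and 6.87% of all genes tested and 3.13% and 7.3% did not overlap. At an unadjusted p under 0.05 each of these comparisons had 1 member, where 1379 of 11702 and 2226 of 11650 genes tested were under it. The DESeq2 likelihood ratio test called 0 members in both, and 360 and 1068 of all these genes. The interaction also gave 0 of 3 by edgeR and by DESeq2, where edgeR called 0.286% of all genes and DESeq2 called 353 genes. At an unadjusted p under 0.05 it had 0 of 3 members and 1851 of 12586 genes. In cKO MTAL against WT MTAL, *Bsnd* and *Slc12a4* did not overlap, as 15% of 12060 genes tested. Both had an unadjusted p under 0.05 in edgeR, as had 2847 of these genes. Of the members, *Slc12a4* alone did so in cKO MTAL against cKO CTAL (2137 of 12044 genes) and against WT CTAL (2402 of 12024 genes), without overlap in either. With 3 members these counts do not set them apart from other genes.

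**Figure D2:**
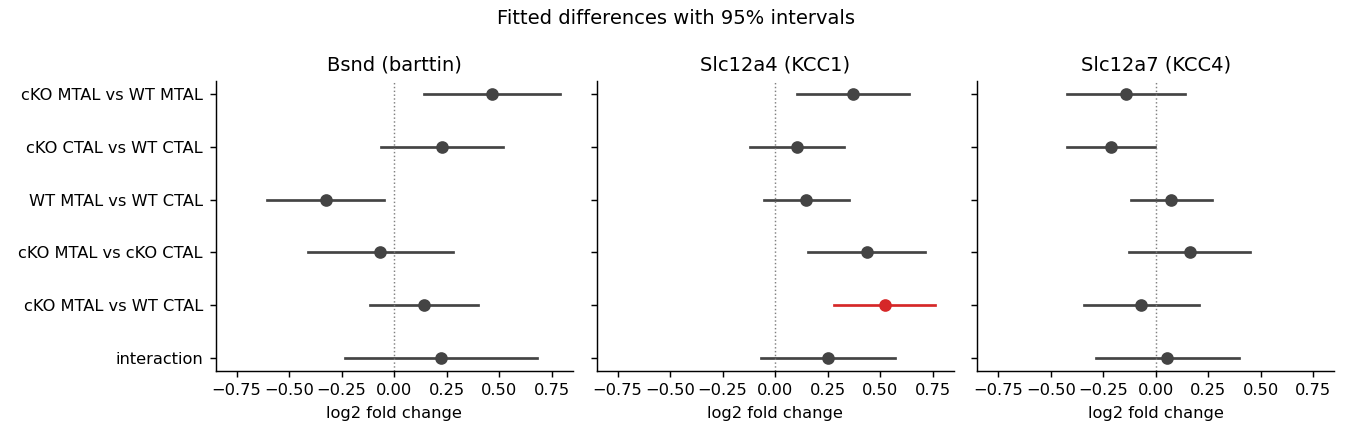
Fitted log2 fold change (edgeR, points) with its 95% interval (lines) for each of the 3 genes in the 5 comparisons between groups and for the interaction of genotype and segment, where a value above 0 means higher in the group named first. Only *Slc12a4* in cKO MTAL against WT CTAL, in red at 0.52, passed an adjusted p of 0.05, and the *Slc12a7* interval for CTAL ends at -0.003, next to 0.

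The relation between counts and TPM was not the same for the 3 genes. CPM per TPM lay between 1.93 and 2.55 for *Bsnd*, which has 1 annotated transcript, between 1.7 and 3.33 for *Slc12a4*, with 5, and between 2.03 and 4.38 for *Slc12a7*, with 11 of which 1 is protein-coding. cKO CTAL replicate 21 had the lowest *Slc12a7* level of all pools in CPM (97.8) and the highest in TPM (48.3). The direction of small *Slc12a7* differences depended on the scale, and the cause was not tested.

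**Figure D3:**
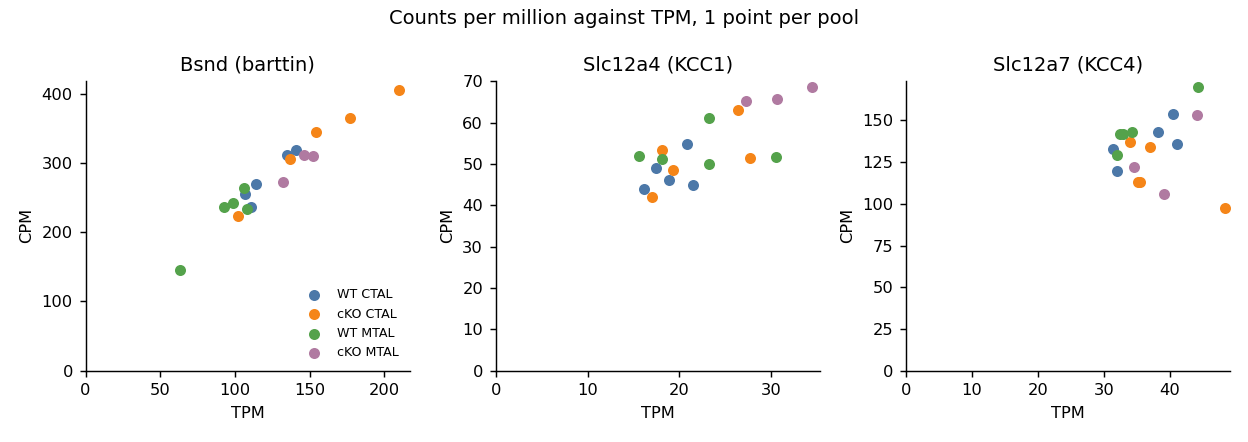
CPM (vertical axes) against TPM (horizontal axes), both from 0, for *Bsnd*, *Slc12a4* and *Slc12a7*, 1 point per pool, coloured by group. The *Bsnd* points follow a line, those of *Slc12a7* do not, and the *Slc12a7* point at 48.3 TPM and 97.8 CPM is cKO CTAL replicate 21.

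The ratio of the 2 cotransporters was lowest in cKO MTAL. The TPM ratio of *Slc12a7* to *Slc12a4* was 1.26, 1.28 and 1.28 in cKO MTAL replicates 16, 18 and 20, and 2.11, 1.45, 1.37, 1.89 and 1.4 in WT MTAL replicates 11, 13, 15, 17 and 19. It was 1.79 to 2.02 in WT CTAL and 1.27 to 2.66 in cKO CTAL, the widest range of the 4 groups. All cKO MTAL pools were below all WT MTAL and all WT CTAL pools (exact Mann-Whitney p = 0.0357, adjusted over 10 ratio tests 0.119), with median log2 differences of -0.18 from WT MTAL and -0.61 from WT CTAL. The difference from WT MTAL was -0.37 without WT MTAL replicate 15 or 19, -0.35 without replicate 13 and -0.55 in CPM. Against cKO CTAL the exact p was 0.143. In CPM the ratio was 1.9 ± 0.31 in cKO MTAL (n = 3) against 2.74 ± 0.35 in WT MTAL (n = 5), 2.34 ± 0.413 in cKO CTAL (n = 5) and 2.88 ± 0.178 in WT CTAL (n = 5).

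**Figure D4:**
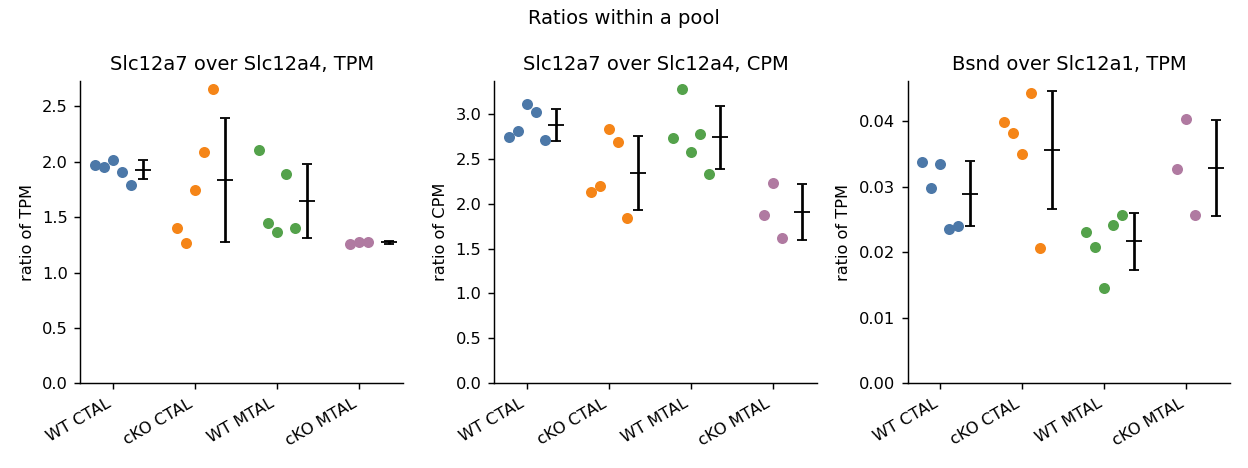
Ratio of *Slc12a7* to *Slc12a4* in TPM (left) and in CPM (middle) and of *Bsnd* to *Slc12a1* in TPM (right), 1 point per pool by group, with mean and SD as black bars and vertical axes from 0. The cKO MTAL pools lie together at 1.26 to 1.28 on the left, below all WT pools, and at 0.0257 to 0.0403 on the right, above all WT MTAL pools.

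The other chloride transport genes were followed with a list of 52 genes, of which 41 were tested in MTAL. In cKO MTAL against WT MTAL, 5 were higher and 1 lower, where 7.01% of all genes tested were called. *Wnk1* is the gene of the kinase at the head of the cascade that activates NKCC2 and inhibits K-Cl cotransport. Its counts were higher in cKO MTAL (1.16, SE 0.161, adjusted p = 0.000429). The mean went from 290 CPM in WT MTAL to 624 in cKO MTAL, but from 65.4 to 275 in TPM, a larger step. Which transcripts of *Wnk1* changed, and whether they encode the whole kinase, was not tested. *Kcnj16*, a subunit of the basolateral potassium channel, rose by 0.56 (adjusted p = 0.0139) and *Umod*, the gene of uromodulin, by 0.67 (adjusted p = 0.00223). The volume-regulated anion channel subunit *Lrrc8b* (1.51, adjusted p = 0.0424) and *Clic1* (0.44, adjusted p = 0.0479) were also higher. *Fxyd2*, the gamma subunit of the sodium pump, fell by 0.80 (adjusted p = 0.00292). The sodium pump beta subunit *Atp1b1* (0.05) and the apical potassium channel *Kcnj1* (0.25, adjusted p = 0.223) did not pass the test. The median log2 difference of the list was 0.049, beside 0.001 for all genes tested.

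None of the 7 tested genes of the CLC channel and exchanger group was called in cKO MTAL against WT MTAL by edgeR, and none had an unadjusted p under 0.05. Of all 12060 genes tested, 7.01% were called and 2847 were under that p. With 7 genes these counts do not set the group apart from other genes. The log2 differences of the group ran from -0.21 (*Ostm1*, the partner of the lysosomal exchanger ClC-7) to 0.49 (*Clcn2*, a plasma membrane channel, SE 0.347). The endosomal exchangers *Clcn3*, *Clcn4* and *Clcn5* had values of 0.06, 0.05 and 0.02.

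In cKO CTAL against WT CTAL 1 of 42 list genes was called, beside 1.22% of all genes, *Wnk1* at 0.73 (SE 0.127, adjusted p = 0.0112). Between WT segments 1 list gene was higher in MTAL (*Fxyd2*, 0.999, adjusted p = 8.51e-05) and 6 were lower, of 40 tested and beside 6.87% of all genes. The lower ones included *Wnk1* (-1.30, adjusted p = 2.99e-07), *Umod* (-0.78), *Kcnj16* (-0.59) and its partner subunit *Kcnj10* (-0.39, adjusted p = 0.0221), as well as *Klhl3* (-0.64), an adaptor for the degradation of WNK kinases, and *Lrrc8b* (-1.15). In cKO MTAL against cKO CTAL *Fxyd2* (0.68, adjusted p = 0.0105) and *Cab39l* (0.48, adjusted p = 0.0434), a scaffold of the WNK-dependent kinases, were higher. Against WT CTAL, cKO MTAL had 0 list genes called by edgeR and by DESeq2, with 4 of 42 at an unadjusted p under 0.05 in edgeR. Of all 12024 genes tested there, 2.5% were called by edgeR and 830 by DESeq2's likelihood ratio test, and 2402 were under that p. The interaction was called for *Umod* alone (0.61, adjusted p = 0.045), and for 0 list genes with WT CTAL replicate 1 counted as cKO.

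**Figure D5:**
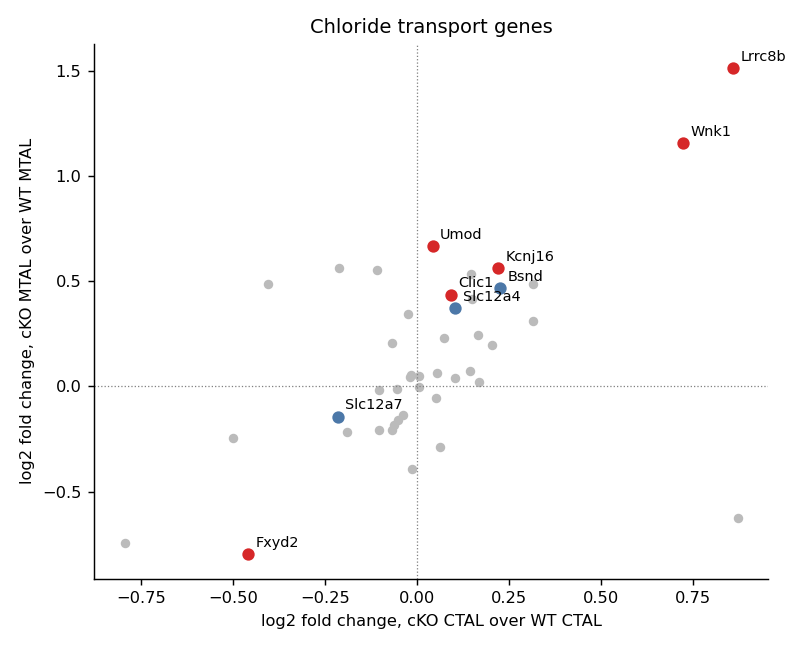
Fitted log2 fold change between genotypes in MTAL (vertical axis) against that in CTAL (horizontal axis) for 43 genes, the 3 members in blue and 40 genes of the chloride transport list tested in both segments, in red where called in either segment and in grey otherwise. *Wnk1* (0.73 in CTAL, 1.16 in MTAL) and *Lrrc8b* lie far to the upper right, *Fxyd2* (-0.46 in CTAL, -0.80 in MTAL) to the lower left, and *Bsnd* and *Slc12a4* lie above 0 on both axes.

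The genes that varied most like each member over the 18 pools were different for the 3. By Pearson's r of log2(CPM + 1), a description over pools that share 4 groups, those nearest to *Bsnd* were *Tmem9* (0.828), *Cutal* (0.827), *Kcnj1* (0.814), *Rab11fip4* (0.802) and *Pomgnt1* (0.801). Of these, *Kcnj1* encodes the apical potassium channel ROMK of the TAL. Nearest to *Slc12a4* were *Sec61a1* (0.896), the channel subunit of protein entry into the endoplasmic reticulum, *Lmna* (0.885), a nuclear lamin, *Dysf* (0.859), *Piezo1* (0.848), a mechanically gated ion channel, and *Klhdc8a* (0.843). Nearest to *Slc12a7* were *Vav2* (0.885), *Glis2* (0.824), *Aktip* (0.801) and *Plod2* (0.795). Among themselves the members had r of -0.03 (*Bsnd* and *Slc12a4*), -0.149 (*Bsnd* and *Slc12a7*) and 0.062 (*Slc12a4* and *Slc12a7*).

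Markers of other cells differed between the groups, and in bulk pools fewer cells of a type and less RNA per cell cannot be told apart. The summed level of 5 tubular injury genes was 1050 to 1260 CPM in WT MTAL and 1970 to 8120 in cKO MTAL, and 1370 to 1620 in WT CTAL against 1690 to 4480 in cKO CTAL. That of 5 endothelial genes was 221 to 335 CPM in WT MTAL, 117 to 214 in cKO MTAL and 178 to 413 in WT CTAL, and that of 6 proximal tubule genes 33.6 to 56.6 in WT MTAL and 59.9 to 175 in cKO MTAL. The 7 TAL markers summed to 50800 to 63500 CPM in WT MTAL, 68300 to 79200 in cKO MTAL and 85500 to 96200 in WT CTAL. Intercalated cells, which also express barttin, had summed levels of 6 markers of 18.7 to 97.9 CPM in WT MTAL and 37.8 to 246 in cKO MTAL. The highest pool, cKO MTAL replicate 20, also had the highest sum of 5 principal cell markers (794 CPM) and the lowest *Bsnd* level of its group (273 CPM). Without that pool the *Bsnd* difference between the genotypes in MTAL was 0.53 (adjusted p = 0.101) and that of *Slc12a4* 0.39 (adjusted p = 0.135). Of the other lists, 4 macula densa, 5 fibroblast and 5 immune genes summed to at most 21.1, 45.1 and 198 CPM in any pool, and 5 thin limb genes to 142 to 225 in WT MTAL and 110 to 151 in cKO MTAL. The distal convoluted tubule list, at 485 to 790 CPM, held *Wnk4*, which the TAL also expresses, and its *Slc12a3* had group means of 2.27 to 18.3 CPM. *Pvalb* of this list was at 0 in all cKO MTAL pools, the only marker at 0 throughout a group. The part of these cells in the values of the members was not tested.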

How the data were processed

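Pools of WT and cKO CTAL and MTAL were grouped by the pool names in their titles. For WT CTAL replicate 1, the rest of the title and the genotype field name the knock-out. The authors prepared strand-specific poly-A libraries, mapped reads to mm10 with DRAGEN and quantified genes on a gencode annotation. The submitters' processing notes also list FastQC, Trimmomatic and Picard. The deposited gene counts are estimated counts, with decimals in 6.26% to 9.53% of all values per pool. They were rounded here, where whole counts had been planned for. The deposited TPM values had been divided by transcript length and brought to 1 total per pool by the authors. Whether counting used the strand and how shared reads were divided is not given in the sources used here. A total of 0 value columns could not be mapped to a sample.

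Genes that reached 3 CPM in 5 or more pools (3 or more where cKO MTAL entered) were tested per pair of groups with edgeR's quasi-likelihood test (version 4.0.16, R 4.3.3) after TMM normalization. Adjustment was by Benjamini-Hochberg over all genes, and calls were made at an adjusted p under 0.05. The interaction was tested in one fit of 18 pools. CPM refers to TMM-normalized library sizes. For levels and ratios within pools, the Mann-Whitney test was two-sided and exact. Alternatives were DESeq2 (version 1.42.0), total counts, no filter, limma (version 3.58.1) on log2 TPM with pseudocounts of 0.1 and 1, a term for pools with at least 1 CPM of *Xist*, another label for WT CTAL replicate 1 and each replicate left out. The fits were also run on simulated counts, with the same spread for all genes and changes larger than those of the members. These runs do not show how well differences as small as those of the members are found. No pair of replicates agreed within sampling noise (chi-square per gene at least 16.1). Each pool came from a separate animal. Transcripts were compared with Biopython (version 1.88).

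The named genes are the members, list genes that were called or belong to the cotransporter, CLC or potassium and sodium partner groups, *Cldn10*, the markers and, among the 5 nearest genes per member, those reported. The members and lists were chosen with earlier results of these data known. Some genes of the lists, of the nearest genes and of the pathway are not reported here, and 3 further pools that the study excluded were not analysed here.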

Additional observations from a re-analysis of the deposited data

Results flagged for a closer look

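In WT MTAL, the *Bsnd* level of replicate 15 (145 CPM) lay far below the other 4 pools, with a gap of 0.735 of the group's range. In the same group, the *Slc12a4* level of replicate 19 (61.1 CPM) lay above the other 4 pools, with a gap of 0.827 of the range. Both gaps exceeded Dixon's 95% critical value of 0.71 for 5 pools. In all, 15 sets of 5 pools were examined and 2 were marked, and chance marks about 1 set in 20.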

How the results depend on the processing

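For *Bsnd*, edgeR's uncalled difference between the genotypes in MTAL was called by DESeq2 (0.468 by the likelihood ratio test, 0.471 by the Wald test) and with total counts (0.541). For *Slc12a4*, cKO MTAL against WT MTAL became called with total counts (0.446), in one fit of all 18 pools (0.368) and with the *Xist* term (0.525), and cKO MTAL against cKO CTAL with the likelihood ratio test (0.436), in one fit (0.402) and with the *Xist* term (0.448). Its call against WT CTAL was lost without the filter (0.472), on TPM (0.694 and 0.669 with pseudocounts of 0.1 and 1) and with WT CTAL replicate 1 counted as cKO (0.492), and ranged from 0.492 to 0.578 when a pool was left out. *Slc12a7* changed sign on TPM in cKO against WT MTAL (0.162 and 0.158), cKO against WT CTAL (0.048 and 0.047), WT MTAL against WT CTAL (-0.06 and -0.059) and cKO MTAL against WT CTAL (0.102 and 0.1). In exact tests on TPM, p was 0.0714 for *Slc12a4* in cKO MTAL against WT MTAL and against cKO CTAL and 0.0159 for *Bsnd* between WT segments. For *Slc12a7* the median difference changed sign, at an exact p of 0.25 (cKO against WT MTAL), 1 (WT segments, on total counts too) and 0.571 (cKO MTAL against WT CTAL). The cause of these changes was not tested.

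With 1 pool left out, values ranged from -0.195 to 0.016 for *Bsnd* in cKO MTAL against cKO CTAL, where leaving out cKO CTAL replicate 9 changed the sign. For *Slc12a7* they ranged from -0.207 to 0.052 in cKO MTAL against WT CTAL (sign changed without cKO MTAL replicate 20) and from -0.071 to 0.187 for the interaction (without cKO MTAL replicate 18). The log2 *Slc12a7* to *Slc12a4* ratio ranged from -0.372 to -0.155 in cKO against WT MTAL, from -0.615 to -0.594 in cKO MTAL against WT CTAL and from -0.45 to -0.234 between WT segments, where the exact p was 0.0317 without WT MTAL replicate 11. The *Bsnd* to *Slc12a1* ratio ranged from 0.331 to 0.656 in cKO against WT MTAL, from 0.278 to 0.519 in cKO against WT CTAL (exact p of 0.0159, the lowest possible, without cKO CTAL replicate 21) and from -0.034 to 0.291 in cKO MTAL against WT CTAL (sign changed without cKO MTAL replicate 18). It was -0.383 (exact p of 0.0159) between WT segments in CPM. With a pool removed from 3 against 5, the exact test cannot go below 0.0571 or 0.0952. The chloride list had 4 calls by DESeq2 and with WT CTAL replicate 1 as cKO in CTAL (1 by edgeR), 4 by DESeq2 in cKO MTAL against cKO CTAL (2), 1 without the filter in cKO MTAL against WT CTAL (0), and 0 with that relabelling for the interaction (1). Over all genes, DESeq2's likelihood ratio test called 1366 against 845 in cKO against WT MTAL, 360 against 143 in cKO against WT CTAL, 825 against 211 in cKO MTAL against cKO CTAL, 830 against 300 in cKO MTAL against WT CTAL and 353 against 36 for the interaction. Without the filter, these counts were 1399, 508 (cKO MTAL against cKO CTAL), 702 (against WT CTAL) and 79 (interaction), and with replicate 1 as cKO 388, 161 and 17 for the last 3. Of 50 other fits per gene, 47 for *Bsnd*, 40 for *Slc12a4* and 42 for *Slc12a7* changed neither direction nor call. No paired analysis was possible because the groups share no replicate number.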
